A study of Mus musculus with 6 samples.

Results

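The Sox9, Sox5 and Sox6 loci were examined for open chromatin in distal forelimb buds with and without HOXA13 and HOXD13. The regions were taken from the peaks of an assay for transposase-accessible chromatin (ATAC-seq), in which the transposase Tn5 inserts sequencing adapters into open DNA. For Sox5 and Sox6, all peaks with a midpoint inside the gene or within 200 kb of any of its annotated start sites were included. For Sox9, the peaks came from the gene deserts that run on chromosome 11 from the end of Kcnj2 to 500 kb beyond Sox9. These rules gave 198 of the 61954 peaks, 83 at Sox9, 52 at Sox5 and 63 at Sox6. The windows were chr11:111076822-113287760, chr6:143747088-144981977 and chr7:115397896-116238796 (mm10).

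Limb buds were dissected at E11.5 from embryos on a mixed C57Bl/6 x 129 background. There were 2 WT libraries and 2 Hox13-/- libraries, from embryos in which the null alleles Hoxa13Str and Hoxd13lacZ inactivate Hoxa13 and Hoxd13 in all cells. Each library came from 50000 cells of both distal buds of 1 embryo, so the libraries of a genotype are different embryos. A further pair of libraries of proximal limb buds was not analysed here. The values are regularized log (rLog) values per peak and library, on a log2 scale, scaled for library size by the authors and shrunk towards the mean of the peak. They are not divided by peak length, so a ranking of peaks by value also reflects their length and was used only to choose peaks to name and to filter weak ones. The deposited values hold no read counts, so the depth of a peak cannot be given. Differences are given as Hox13-/- minus WT and were tested at all 61954 peaks with limma with Benjamini-Hochberg adjustment. A peak whose adjusted p was under 0.05 was called lower or higher in Hox13-/-.

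SOX9 is the transcription factor that starts the cartilage program in limb mesenchyme. SOX5 and SOX6 are closely related factors that bind beside SOX9 on cartilage genes and strengthen its action, and the 3 genes are often called the SOX trio. Sox9 is a small gene in a large gene desert that holds distant enhancers, and rearrangements of this desert are known to disturb the skeleton. Sox5 and Sox6 are long genes with many introns. Hoxa13 and Hoxd13 are needed for the digit cartilages, which form in the distal limb bud.

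The sequences that carry the largest changes are the most significant lower and the most significant higher peak of each locus, each shown as the 200 bases around its midpoint on the plus strand of mm10. Where such a peak held a searched motif outside these bases, a further 100 bases are shown. Capitals mark a HOX13-type motif (CAATAAA or TCGTAAA) or a SOX-type motif (AACAATG or AACAAAG) on either strand. A motif match is a description of the letters and not a bound site. Stretches without capitals hold no match.
Sox9, lower, 606.8 kb upstream, chr11:112175338-112175537: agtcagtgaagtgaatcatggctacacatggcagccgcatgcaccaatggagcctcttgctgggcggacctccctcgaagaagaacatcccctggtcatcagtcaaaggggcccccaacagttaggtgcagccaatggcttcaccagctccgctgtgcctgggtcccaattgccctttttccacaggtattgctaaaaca
the same peak, around its only match, chr11:112175011-112175110: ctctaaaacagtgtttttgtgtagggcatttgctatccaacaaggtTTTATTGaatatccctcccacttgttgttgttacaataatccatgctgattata
Sox9, higher, 90.5 kb downstream, chr11:112872584-112872783: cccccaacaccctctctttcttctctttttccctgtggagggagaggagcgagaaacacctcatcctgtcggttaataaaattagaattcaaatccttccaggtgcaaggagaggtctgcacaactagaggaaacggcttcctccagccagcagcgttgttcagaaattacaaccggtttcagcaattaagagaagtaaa
the same peak, next 100 bases, chr11:112872784-112872883: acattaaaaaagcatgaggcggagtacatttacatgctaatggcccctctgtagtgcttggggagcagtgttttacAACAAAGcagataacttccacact
Sox5, lower, intron, chr6:144048399-144048598: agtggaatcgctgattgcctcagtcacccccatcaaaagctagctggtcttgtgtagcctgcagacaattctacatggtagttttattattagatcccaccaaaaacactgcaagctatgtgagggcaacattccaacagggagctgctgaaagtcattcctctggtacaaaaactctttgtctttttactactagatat
Sox5, higher, intron, chr6:144454337-144454536: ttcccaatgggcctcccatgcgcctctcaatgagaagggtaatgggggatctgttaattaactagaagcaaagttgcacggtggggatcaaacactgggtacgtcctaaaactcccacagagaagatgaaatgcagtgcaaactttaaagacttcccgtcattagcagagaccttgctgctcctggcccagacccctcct
the same peak, next 100 bases, chr6:144454537-144454636: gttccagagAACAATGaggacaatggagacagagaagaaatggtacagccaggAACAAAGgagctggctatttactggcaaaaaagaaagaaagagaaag
Sox6, lower, intron, chr7:115523395-115523594: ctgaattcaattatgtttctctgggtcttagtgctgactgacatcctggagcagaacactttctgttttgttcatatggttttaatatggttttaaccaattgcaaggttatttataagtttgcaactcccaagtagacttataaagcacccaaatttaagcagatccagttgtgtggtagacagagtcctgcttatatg
Sox6, higher, intron, chr7:115559040-115559239: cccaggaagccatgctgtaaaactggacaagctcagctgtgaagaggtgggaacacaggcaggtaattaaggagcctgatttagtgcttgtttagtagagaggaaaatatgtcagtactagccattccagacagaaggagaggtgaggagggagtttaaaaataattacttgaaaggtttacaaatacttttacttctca

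Across the 3 loci more peaks gained than lost accessibility in Hox13-/-. Of the 198 peaks, 49 were higher (24.7%) and 12 were lower (6.06%), where 11.4% of all peaks were higher and 8.31% lower. Most of these regions lie away from start sites, where the background differs. Of all 40535 peaks over 1 kb from every annotated start site, 16.1% were higher and 8.31% lower. Of the 174 such peaks at the 3 loci, 46 were higher (26.4%) and 12 were lower (6.9%). The lower share at the loci was thus near or under the background, and the higher share was above it. With a library left out, all 198 peaks were counted and not the 174, so peaks away from start sites are no matched background. The excess over them was small or absent when certain libraries were left out. Without WT replicate 1, 19 of the 198 peaks were higher (9.6%), against 7.51% of all peaks and 10.6% of those away from start sites. Without Hox13-/- replicate 2, 23 were higher (11.6%), against 8.06% and 11.4%. It was kept without WT replicate 2, with 14.6% higher, and without Hox13-/- replicate 1, with 17.2% against 11.2%. The lower count was 7 without Hox13-/- replicate 2, and 8 without either WT library. The median difference was 0.13 over the 198 peaks, and it was −0.01 over all peaks and 0.07 over all peaks away from start sites. The WT and Hox13-/- libraries did not overlap at 136 peaks (68.7%), against 59.2% of all peaks.

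The excess of higher peaks depended on how the values were scaled. The peaks at the 3 loci had a median GC content of 47.3%, against 52.1% over all peaks. After a correction of each library for GC content, 27 were higher (13.6%) and 17 were lower (8.59%). The shares over all peaks were then 8.73% higher and 8.18% lower, and away from start sites 12.1% and 10.3%. The share of higher peaks among those called went from 80.3% to 61.4%. With each library centred on its median, 35 were higher (17.7%) and 13 lower (6.57%), against 9.71% and 11% of all peaks. Away from start sites the shares were then 13.8% and 10.4%. The peak list was uneven as well, since 85 of the 198 peaks had been called by the authors in Hox13-/- libraries only and 28 in WT libraries only. Over all peaks these shares were 32.2% and 16.6%, and at the 3 loci 42.9% and 14.1%. Among the 38 peaks called in all 4 libraries, 7 were higher and 0 were lower by limma, with 13 at an unadjusted p under 0.05 in either direction. Over all 19709 such peaks 7.81% were higher and 9.53% lower, with a median difference of −0.09. At the 3 loci 18.4% were higher. The 19709 include peaks at start sites, and of all peaks within 1 kb of a start site only 2.38% were higher. The share among those called in all 4 libraries and away from start sites was not counted, so the 18.4% lacks a matched background.

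**Figure D1:**
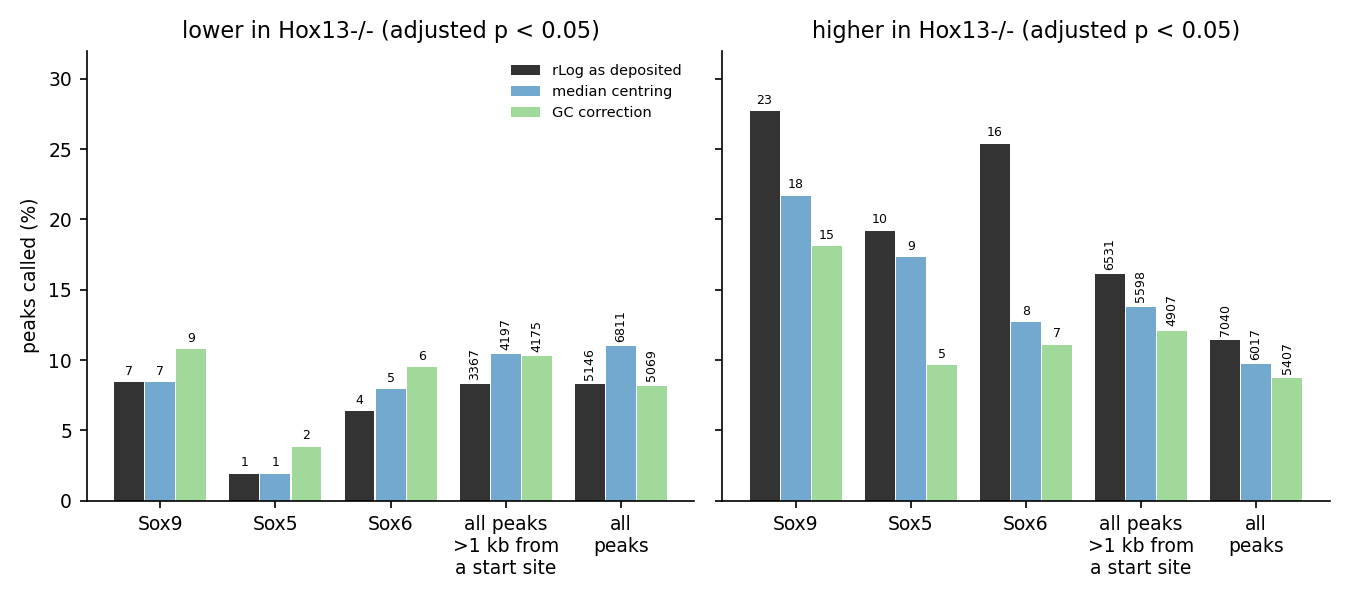
Percent of peaks lower (left) and higher (right) in Hox13-/- at each locus and over all peaks, with the number of peaks above each bar. Dark bars use the values as deposited, blue bars median-centred libraries and green bars a GC correction. With the GC correction the share of higher peaks at Sox9 came down from 27.7% to 18.1%. Over all peaks away from start sites it came down from 16.1% to 12.1%.

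Only 1 of the 198 peaks passed a 2-fold difference, in the lower direction and at Sox9. No peak was more than 2-fold higher, with or without the limma test, since the largest increase was 0.81. Over all peaks, 0.224% were lower and 0.313% higher by more than 2-fold. Shrinkage of the rLog values makes the differences of weak peaks smaller than their fold changes, so this threshold passes few of them. At a 1.5-fold threshold 5 peaks were lower and 9 higher.

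**Figure D2:**
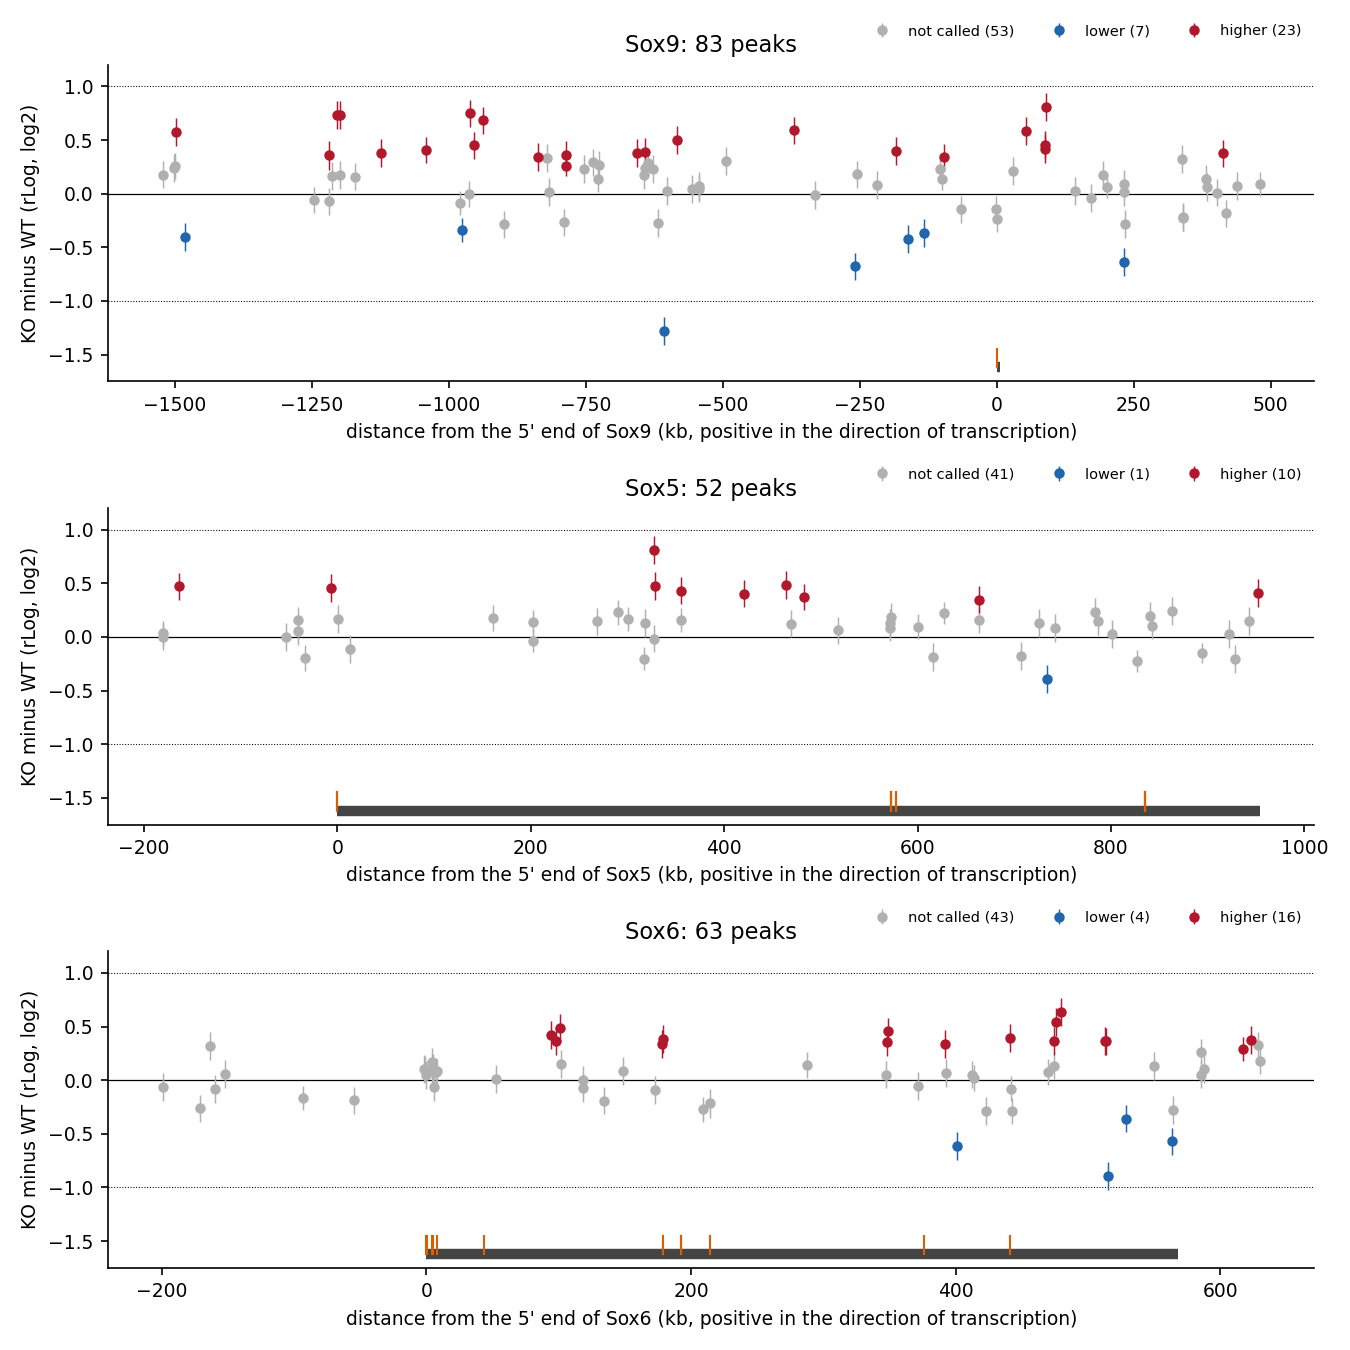
Difference between genotypes (Hox13-/- minus WT, rLog on a log2 scale, with standard error) of each peak against its distance from the 5′ end of Sox9, Sox5 and Sox6 in kb. Grey bars at the bottom are the genes, orange ticks their start sites and dotted lines a 2-fold difference; 1 Sox9 peak lies past a dotted line, at −1.28.

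At Sox9, 23 of the 83 peaks were higher (27.7%) and 7 were lower (8.43%), and all 83 lay outside the gene. Of the 79 over 1 kb from every start site, 29.1% were higher and 8.86% lower, against 16.1% and 8.31% of all such peaks. At the start site itself no change passed the test. The peak over it, chr11:112782010-112782414, had rLog values of 6.55 and 6.52 in WT and 6.28 and 6.33 in Hox13-/-. The Hox13-/- values were below both WT values, but the difference of −0.23 (standard error, SE, 0.128, 95% interval −0.48 to 0.02) had a limma adjusted p of 0.19. A second peak, 0.7 kb upstream, differed by −0.15 and was not called. The part of the start-site peak before the first exon holds neither motif and is shown as the promoter with which the distant peaks can be compared.
Sox9 promoter, chr11:112782010-112782223: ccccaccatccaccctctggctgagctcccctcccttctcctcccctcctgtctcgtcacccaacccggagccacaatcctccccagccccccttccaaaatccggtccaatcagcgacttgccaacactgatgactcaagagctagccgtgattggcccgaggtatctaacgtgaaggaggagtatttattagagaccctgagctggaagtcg

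The strongest change in the desert was a loss 606.8 kb upstream of Sox9. The peak, chr11:112175000-112175874, had rLog values of 7.11 and 7.10 in WT and 5.92 and 5.72 in Hox13-/-. The WT libraries agreed closely and both lay far above the Hox13-/- libraries. The difference was −1.28 (SE 0.128, 95% interval −1.53 to −1.03, limma adjusted p = 1.5e-20). It stayed between −1.38 and −1.18 when any single library was left out and under every other setting tried. The authors had called this peak in both WT libraries and in neither Hox13-/- library. The peak of 875 bp lies outside annotated genes, and its nearest neighbour in the list, 4.3 kb away, differed by 0.03. It holds 1 HOX13-type match, TTTATTG at chr11:112175057-112175063, in the 100 bases shown above. A HOX13-type match is in 12.2% of the 2049 peaks of a similar length (within 10%).

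The other lower peaks at Sox9 changed less and were spread over both sides of the gene. The peak 258.5 kb upstream had rLog values of 4.06 and 3.89 in WT and 3.31 and 3.29 in Hox13-/- and differed by −0.68 (SE 0.123, limma adjusted p = 1.3e-06). The peak 231.9 kb downstream had 4.65 and 4.52 in WT and 3.93 and 3.95 in Hox13-/-, which gave a difference of −0.64 (SE 0.129, limma adjusted p = 1.9e-05). In both peaks the genotypes were apart and the Hox13-/- libraries were nearly equal. The upstream peak is weak, outside the upper 75% of peaks by mean signal, and had been called in 1 WT library. Shrinkage makes differences at weak peaks smaller, also those between replicates. The downstream peak stood out from its surroundings, since the 3 other peaks within 5 kb of it differed by −0.28 to 0.09 and were not called. The peak 161.2 kb upstream had 5.01 and 4.81 in WT and 4.36 and 4.61 in Hox13-/- and thus differed by −0.42 (SE 0.131, limma adjusted p = 0.011). That call was lost without WT replicate 1, at −0.32, and without Hox13-/- replicate 1, at −0.30. The remaining 3 lower peaks, at 133.1, 975.2 and 1482.6 kb upstream, differed by −0.37, −0.34 and −0.40. The last of these holds a HOX13-type match.

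Peaks with a gain were spread over the far upstream desert and the downstream side, and no test of a trend with distance was made. Of all peaks away from start sites, 16.1% were higher and 8.31% lower. Over 1 Mb upstream of Sox9, 6 of 15 peaks were higher (40%) and 1 was lower (6.67%). Between 500 kb and 1 Mb upstream, 9 of 30 were higher (30%) and 2 lower (6.67%). Between 200 and 500 kb upstream there was 1 of each among 6 peaks (16.7%). Between 50 and 200 kb upstream there were 2 of each among 7 (28.6%). Downstream of the gene, 5 of 23 were higher (21.7%) and 1 was lower (4.35%). No peak lay between 1 and 50 kb upstream. The median difference was 0.24 over 1 Mb upstream, 0.23 from 500 kb to 1 Mb upstream and 0.07 downstream.

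In the far desert, 5 of the 15 higher peaks lie in 2 places. A pair of higher peaks lies 1204.1 and 1199.1 kb upstream. The first, chr11:111577884-111578450, had rLog values of 5.40 and 5.64 in WT and 6.29 and 6.21 in Hox13-/- and differed by 0.73 (SE 0.129, limma adjusted p = 6.9e-07), and holds a SOX-type match. The second, chr11:111582917-111583376, had 5.66 and 5.35 in WT and 6.25 and 6.23 in Hox13-/-, which gave a difference of 0.74 (SE 0.129, limma adjusted p = 6.2e-07). Both WT libraries were below both Hox13-/- libraries in either peak. Another 3 lie from 961.7 to 938.0 kb upstream and were higher by 0.75, 0.45 and 0.68. The first of them, chr11:111820360-111820612, had 3.65 and 3.64 in WT and 4.34 and 4.44 in Hox13-/- (SE 0.127, limma adjusted p = 2.2e-07), and the other two were already called in all 4 libraries. Both places were put together after the values were seen, and clustering was not tested. The remaining 10 were higher by 0.26 to 0.58.

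Downstream of Sox9, 4 of the 5 gains were 53.5 to 90.5 kb from the start site, and the fifth was at 412.7 kb. The peak at 90.5 kb, chr11:112872407-112872959, had rLog values of 5.16 and 5.10 in WT and 5.79 and 6.08 in Hox13-/-. The difference was 0.80 (SE 0.130, 95% interval 0.55 to 1.06, limma adjusted p = 4.3e-08), and it was the largest increase at this locus. Peaks at 53.5, 87.9 and 88.5 kb were higher by 0.59, 0.46 and 0.42. The peak named for its high value away from the start site lies 369.7 kb upstream and was also higher in Hox13-/-. It is 796 bp long and had 7.37 and 7.15 in WT and 7.81 and 7.89 in Hox13-/- and thus differed by 0.59 (SE 0.125, limma adjusted p = 5.0e-05). This higher peak holds a HOX13-type match, CAATAAA at chr11:112412645-112412651, as do 12.1% of peaks of a similar length.

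The number of calls at Sox9 moved with the libraries used. Without WT replicate 1 or without Hox13-/- replicate 2, 13 peaks were higher, while 3 and 4, respectively, were lower. In both cases the share of higher peaks was above that of all peaks, and by less above that of peaks away from start sites. After the GC correction 15 peaks were higher (18.1%) and 9 lower (10.8%). All peaks then gave 8.73% and 8.18%, and those away from start sites 12.1% and 10.3%.

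**Figure D3:**
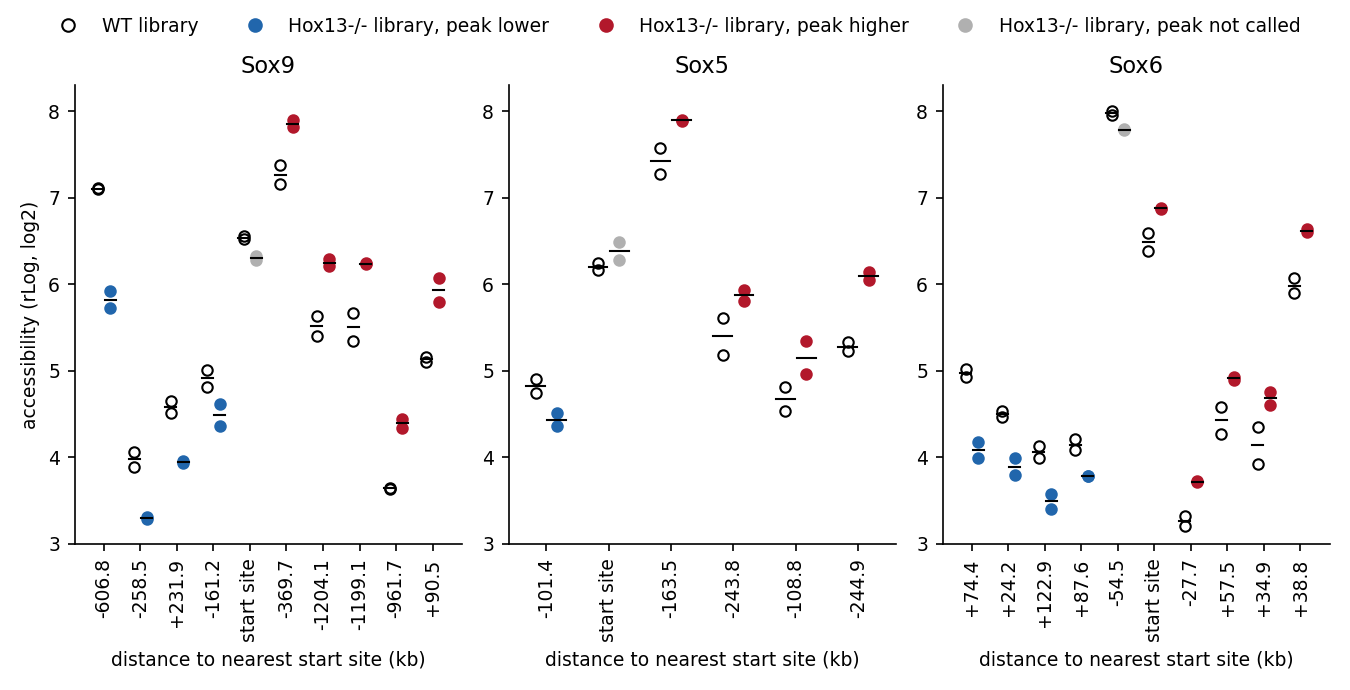
rLog values (log2 scale) of the peaks named at each locus, 1 point per library, ordered by the difference between genotypes and labelled by distance to the nearest start site of the gene in kb. Open circles are WT and filled circles Hox13-/- libraries, coloured by call, and short lines are means of 2; the peak 606.8 kb upstream of Sox9 has the widest gap, from 7.11 and 7.10 to 5.92 and 5.72.

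At Sox5, 10 of the 52 peaks were higher (19.2%) and 1 was lower (1.92%), with a median difference of 0.14. Of its 48 peaks over 1 kb from every start site, 20.8% were higher and 2.08% lower, against 16.1% and 8.31% of all such peaks. The gene, chr6:143828425-144781977 on the minus strand, has 12 annotated start sites. The start-site peak named for its high value, chr6:144209164-144209796, lies at an internal start site, far from the annotated 5′ end of the gene. It had rLog values of 6.24 and 6.16 in WT and 6.29 and 6.49 in Hox13-/-. Its difference of 0.18 (SE 0.129, 95% interval −0.07 to 0.44, limma adjusted p = 0.32) was not called. The other 2 start-site peaks differed by 0.13 and 0.16 and were not called either. The part of the peak outside exons holds neither motif, as printed on the plus strand.
Sox5 internal start-site peak, chr6:144209569-144209796: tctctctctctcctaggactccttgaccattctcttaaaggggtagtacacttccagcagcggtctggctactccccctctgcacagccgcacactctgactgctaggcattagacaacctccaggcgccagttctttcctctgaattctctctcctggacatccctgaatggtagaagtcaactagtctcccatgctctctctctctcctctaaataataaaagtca

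Of the 10 gains at Sox5, 7 were in introns, as were 41 of all 52 peaks of the locus. The largest was chr6:144454205-144454667, an intronic peak 244.9 kb upstream of the nearest start site. It had rLog values of 5.33 and 5.23 in WT and 6.14 and 6.04 in Hox13-/- and differed by 0.81 (SE 0.130, 95% interval 0.56 to 1.07, limma adjusted p = 2.7e-08). The authors had called it in both Hox13-/- libraries and in no WT library. The 100 bases that follow its central window hold 2 SOX-type matches, AACAATG and AACAAAG, and 13.9% of the peaks of a similar length hold any. A peak beside it, at 243.8 kb, had 5.61 and 5.19 in WT and 5.93 and 5.81 in Hox13-/-, which gave a difference of 0.47 (SE 0.130, limma adjusted p = 0.0031). That call was lost without WT replicate 2, at 0.26, and without Hox13-/- replicate 1, at 0.41.

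Outside the gene, a peak of 871 bp lies 163.5 kb upstream, at chr6:144944997-144945867, and was named for its high value and its small p. It holds a HOX13-type and a SOX-type match, found in 11.9% and 18.3% of peaks of a similar length. It had rLog values of 7.27 and 7.57 in WT and 7.90 and 7.89 in Hox13-/- and thus differed by 0.47 (SE 0.124, limma adjusted p = 0.0019). Without WT replicate 1 the difference was 0.32 and the call was lost. The intronic peak 108.8 kb upstream of a start site had 4.81 and 4.53 in WT and 4.97 and 5.34 in Hox13-/- and differed by 0.48 (SE 0.131, limma adjusted p = 0.0027). This call was lost without WT replicate 2, at 0.34, and without Hox13-/- replicate 2, at 0.30.

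The only lower peak at Sox5 is intronic, chr6:144048366-144048630. It had rLog values of 4.74 and 4.91 in WT and 4.51 and 4.36 in Hox13-/-, which gave a difference of −0.39 (SE 0.131, limma adjusted p = 0.019). The call was lost without WT replicate 2, at −0.31, and without Hox13-/- replicate 2, at −0.31, while 2 peaks were lower without WT replicate 1. Of all peaks, 16.1% were higher away from start sites and 2.38% within 1 kb of one. By distance at Sox5, 6 of 22 peaks between 50 and 200 kb from a start site were higher (27.3%). Between 1 and 50 kb there was 1 of 15 (6.67%), over 200 kb 3 of 12 (25%) and within 1 kb 0 of 3. No start-site peak had an unadjusted p under 0.05 either. Without WT replicate 1, 4 peaks were higher (7.69%, against 7.51% of all peaks), and without WT replicate 2 also 4 (7.69%, against 8.08%). Without Hox13-/- replicate 2 there were 5 (9.62%, against 8.06%), and without Hox13-/- replicate 1 there were 8 (15.4%, against 7.85%). After the GC correction 5 were higher (9.62%, against 8.73% of all peaks and 12.1% of those away from start sites). The share of higher peaks at Sox5 was thus near that of all peaks in 4 of these 5 cases. In the same 4 it was under that of peaks away from start sites, where most Sox5 peaks lie.

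At Sox6, 16 of the 63 peaks were higher (25.4%) and 4 were lower (6.35%), with a median difference of 0.08. Of its 47 peaks over 1 kb from every start site, 27.7% were higher and 8.51% lower, against 16.1% and 8.31% of all such peaks. The gene, chr7:115470872-116038796 on the minus strand, has 13 annotated start sites, and 12 peaks lay within 1 kb of them. Of these, 3 were higher and 0 lower, and their differences ran from −0.22 to 0.39. Over all peaks within 1 kb of a start site, 2.38% were higher and 8.31% lower. The 3 higher ones were all at internal start sites, and none of the 8 peaks within 10 kb of the 5′ end of the gene was called by limma, with 0 at an unadjusted p under 0.05. The start-site peak named for its high value, chr7:115597231-115597796, lies beside the start of an internal non-coding transcript and its midpoint is in a coding exon of other transcripts. It had rLog values of 6.39 and 6.59 in WT and 6.87 and 6.88 in Hox13-/- and thus differed by 0.39 (SE 0.127, limma adjusted p = 0.016). The call was lost without WT replicate 1 (0.29), without Hox13-/- replicate 1 (0.40), without Hox13-/- replicate 2 (0.39) and after the GC correction (0.29). Its stretch outside exons holds neither motif.
Sox6 internal start-site peak, chr7:115597620-115597796: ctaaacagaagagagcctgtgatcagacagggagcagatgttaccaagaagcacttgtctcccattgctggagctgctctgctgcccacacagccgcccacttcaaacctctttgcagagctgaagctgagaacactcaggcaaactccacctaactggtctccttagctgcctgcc

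The largest change at Sox6 was a loss in an intron, with gains close by. The peak chr7:115523359-115523629, 74.4 kb downstream of the nearest start site, had rLog values of 4.93 and 5.02 in WT and 3.99 and 4.17 in Hox13-/-. The difference was −0.89 (SE 0.130, 95% interval −1.15 to −0.64, limma adjusted p = 7.4e-10), and the authors had called the peak in both WT libraries and in no Hox13-/- library. The neighbouring peaks, 1.6 and 2.5 kb away, were higher by 0.36 (limma adjusted p = 0.030) and 0.36 (limma adjusted p = 0.029). These 2 neighbours were chosen after their values were seen. No other lower peak at the 3 loci had a called peak of the opposite direction within 5 kb.

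The other 3 lower peaks at Sox6 were also inside the gene. The peak chr7:115638018-115638250, in an intron, had rLog values of 4.54 and 4.47 in WT and 3.79 and 3.99 in Hox13-/- and differed by −0.61 (SE 0.129, limma adjusted p = 4.4e-05). The peak chr7:115474871-115475102 lies in an untranslated part of an exon and holds a HOX13-type match. It had 4.13 and 3.99 in WT and 3.58 and 3.40 in Hox13-/-, which gave a difference of −0.57 (SE 0.125, limma adjusted p = 1.0e-04). In both peaks the genotypes were apart by more than the spread within them. The intronic peak 87.6 kb downstream of a start site had 4.21 and 4.08 in WT and 3.78 and 3.78 in Hox13-/- and thus differed by −0.36 (SE 0.127, limma adjusted p = 0.028), which was lost whichever library was left out, at −0.42 to −0.30. None of the 4 lower peaks had been called in a Hox13-/- library. Of all lower peaks, 50.9% had been called in WT libraries only, and 10 of the 12 at the 3 loci.

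The most significant gain at Sox6 was intronic. The peak chr7:115558878-115559401, 38.8 kb downstream of a start site, had rLog values of 5.90 and 6.07 in WT and 6.63 and 6.60 in Hox13-/- and differed by 0.64 (SE 0.128, 95% interval 0.38 to 0.89, limma adjusted p = 1.9e-05). It had been called in all 4 libraries, and its central 200 bases hold neither motif. The peak at 34.9 kb had 3.92 and 4.35 in WT and 4.76 and 4.61 in Hox13-/-, which gave a difference of 0.55 (SE 0.130, limma adjusted p = 4.4e-04). The peak at 57.5 kb had 4.27 and 4.58 in WT and 4.90 and 4.93 in Hox13-/- and thus differed by 0.49 (SE 0.131, limma adjusted p = 0.0023). WT replicate 1 was the lowest library in both, and without it the calls were lost, at 0.33 and 0.33. The peak 27.7 kb upstream of a start site had 3.20 and 3.32 in WT and 3.71 and 3.73 in Hox13-/- and differed by 0.46 (SE 0.121, limma adjusted p = 0.0019), also lost without WT replicate 1, at 0.40. The peak named for its high value, at the start site of the neighbouring gene 1110004F10Rik, had 7.95 and 8.00 in WT and 7.78 and 7.80 in Hox13-/-. Its difference of −0.19 (SE 0.123, limma adjusted p = 0.29) was not called.

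The count of higher peaks at Sox6 moved strongly with single libraries. Of 63 peaks, 2 were higher without WT replicate 1 (3.17%), where all peaks gave 7.51%. Without Hox13-/- replicate 2 there were 5 (7.94%, against 8.06%). Without Hox13-/- replicate 1 there were 8 (12.7%, against 7.85%), and without WT replicate 2 there were 9 (14.3%, against 8.08%). The higher count was 8 after median centring (12.7%, against 9.71% of all peaks and 13.8% of those away from start sites). After the GC correction it was 7 (11.1%, against 8.73% and 12.1%). Both shares at Sox6 were under those of peaks away from start sites. They were taken over all 63 peaks, of which only 47 lie over 1 kb from every start site. The share of those 47 was not counted in these settings, so the background is not matched. With a library left out, the share away from start sites was also above that of all peaks. The lower count was 3 in each case of a left-out library. Higher peaks made up 7 of 28 between 50 and 200 kb from a start site (25%) and 6 of 23 between 1 and 50 kb (26.1%). Within 1 kb they made up 3 of 12 (25%). Of these, the peaks chr7:115860157-115860477 and chr7:115860708-115860968 are intronic, with limma adjusted p of 0.023 and 0.048. The authors had called each of them in 1 Hox13-/- library and in no WT library. Of all peaks, 16.1% were higher away from start sites and 2.38% within 1 kb of one.

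HOX13-type matches were found in few of the changed peaks. In the 200 bases around the midpoint, 2 of the 12 lower peaks held a HOX13-type match (16.7%), where 10.9% of all lower peaks and 5.49% of all peaks did. Of the 49 higher peaks, 2 did (4.08%), against 6.29% of all higher peaks. A SOX-type match was in 0 of the 12 lower, 3 of the 49 higher (6.12%) and 18 of the 137 other peaks (13.1%), against 6.67% of all peaks. In the whole peaks, HOX13-type matches were in 3 of the 12 lower peaks (25%), against 14% of all lower peaks, and in 5 of the 49 higher peaks (10.2%), against 12.8% of all higher peaks. SOX-type matches were in 10 of the 49 higher peaks (20.4%) and in 17.5% of all higher peaks.

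The peaks of the rest of the Sox family were counted in the same way, in each gene and within 200 kb of its start sites, for the 16 Sox genes with at least 5 peaks. Most like the Sox9 deserts in the shares of lower and higher peaks was Sox6, followed by Sox1, with 0 lower and 3 higher of 12. Most like Sox5 were Sox2, with 0 lower and 2 higher of 11, and Sox1. Sox6 was closest to the Sox9 deserts, and among the windows of the other genes to Sox1 and Sox5. Sox10, a neural crest factor, had the reverse pattern, with 8 lower and 0 higher of 25, and was named after its values were seen. Sox7, Sox12, Sox15 and Sox21 also had 0 higher peaks, with 1 or 2 lower. The windows were not split by distance to start sites, and of all peaks within 1 kb of a start site only 2.38% were higher. Shares over so few peaks move by several percent with a single peak.

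**Figure D4:**
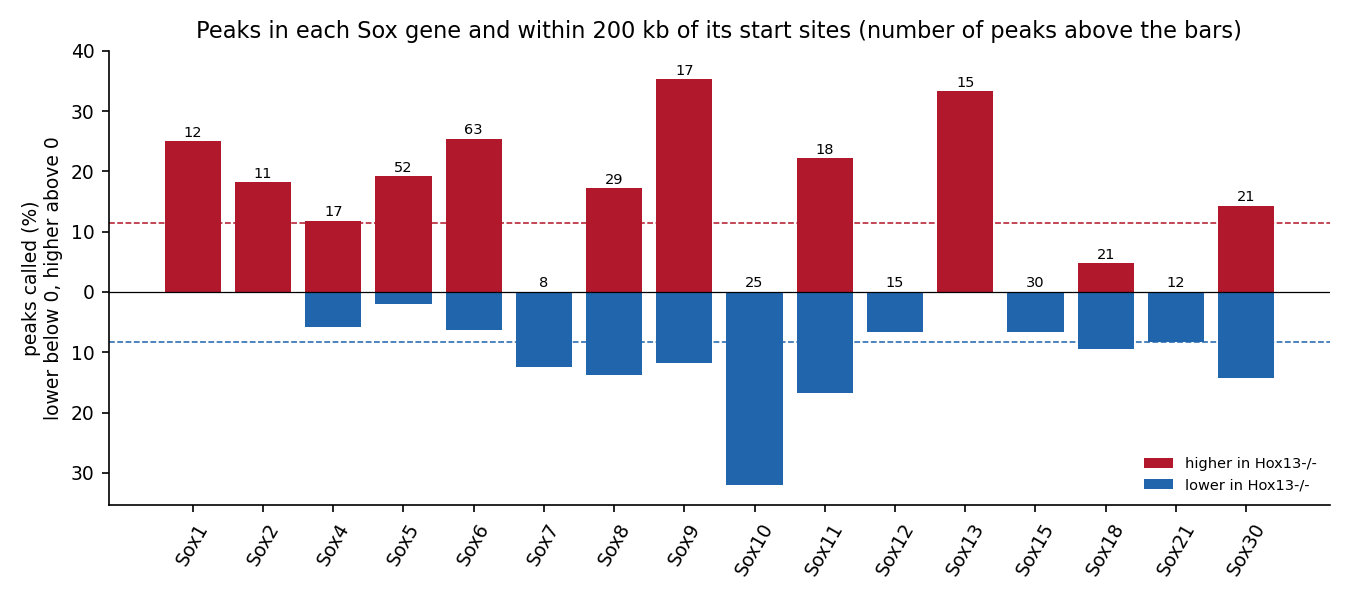
Percent of peaks higher (red, above 0) and lower (blue, below 0) in Hox13-/- in each Sox gene and within 200 kb of its start sites, with the number of peaks above each bar. Dashed lines are the shares over all peaks, 11.4% and 8.31%; Sox9 here has 17 peaks, with 6 higher and 2 lower.

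Few peaks were called at a chosen list of cartilage and other skeletal genes, most of them known as targets of the SOX trio. The list also holds Runx2, with 16 of the peaks, and Runx3, which are not taken here as known targets. Of 18 such genes, 17 had a peak in the gene or within 10 kb of a start site, 74 peaks in all. Of these, 6 were higher (8.11%) and 1 was lower (1.35%), both under the shares over all peaks. The higher peaks lay at Col9a1, Matn3 and Runx2, with 2 at each. The strongest was at Col9a1, a collagen IX chain gene, 10.7 kb from a start site. It had rLog values of 5.81 and 5.53 in WT and 6.79 and 6.49 in Hox13-/-, which gave a difference of 0.97 (SE 0.129, limma adjusted p = 9.6e-12). The lower peak lay at Col2a1, the gene of the main cartilage collagen, with 7.32 and 7.08 in WT and 6.80 and 6.91 in Hox13-/- and thus differed by −0.34 (SE 0.126, limma adjusted p = 0.040). The start-site peak of Col2a1 had 6.78 and 6.54 in WT and 6.58 and 6.87 in Hox13-/-, values that overlapped. That of Acan, the gene of the cartilage proteoglycan aggrecan, had 2.77 and 3.27 in WT and 2.81 and 2.99 in Hox13-/-, which overlapped as well.

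The cell types in the buds were checked by peaks at marker start sites. All 4 limb mesenchyme markers (Prrx1, Twist1, Msx1, Lhx9) had peaks, with summed rLog of 54.5 and 54.9 in WT and 54.5 and 54.6 in Hox13-/-. Of their 11 peaks 1 was lower and 0 were higher. The lower one, at Twist1, had 6.09 and 6.18 in WT and 5.92 and 5.55 in Hox13-/- (limma adjusted p = 0.014). The part of these markers in the results was not tested. The 3 proximal limb markers had 16.7 and 16.2 in WT and 16.7 and 16.5 in Hox13-/-, with 0 of 4 peaks called by limma and 0 at an unadjusted p under 0.05. No blood marker had a peak, and muscle, endothelium, ectoderm and neural crest had a peak at 1 of 4 markers each, none of them called. The chondrogenic markers, which include the 3 loci themselves, had 25 peaks with summed rLog of 116 and 116 in WT and 118 and 119 in Hox13-/-, 3 higher and 0 lower. In dissected distal buds of mixed cells, fewer cells with an open region and less opening per cell cannot be told apart. Accessibility over the targeted genes does not check the labels. The peak over the start site of Hoxa13 had 5.71 and 5.95 in WT and 5.66 and 5.84 in Hox13-/-. That of Hoxd13, with 4.06 and 4.17 against 3.70 and 3.50, differed by −0.52 (limma adjusted p = 6.1e-04).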

How the data were processed

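ATAC-seq libraries of distal forelimb buds, 2 WT and 2 Hox13-/-, were used. According to the labels and the study's methods, the authors mapped read pairs of 50 bp to mm10 using Bowtie2 2.3.1, called peaks in each library with MACS2 2.1.1.20160309, merged them with HOMER 4.9.1 and compared genotypes with DESeq2. SAMtools 1.4.1 is also listed. Handling of duplicates and of the Tn5 offset is not given in the sources used here. The deposited table holds rLog values per library, on a log2 scale, and the authors' fold changes and p-values, which were not used.

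The difference between genotypes was fitted to all 61954 peaks (limma 3.58.1, R 4.3.3, variance trend, two-sided, Benjamini-Hochberg adjustment), and the procedure was tested on simulated data. With 2 libraries against 2, the smallest p an exact permutation test allows is 0.333, so limma's p rests on the spread shared between peaks. Gene positions came from GENCODE M21, all transcripts, and sequences from GRCm38 (mm10) through pysam 0.24.0.

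Named peaks at each locus were the start-site peak with the highest signal, up to 4 lower and 4 higher peaks with the smallest p and the genotypes apart, and the peak with the highest signal elsewhere. The Sox loci, gene lists, motifs and rules were chosen with earlier results of these data known. At start sites, the part of the peak outside exons was printed in place of 200 bases around the midpoint. Alternatives were other scalings, a GC correction, filters on signal, other thresholds and windows, a replicate block and leaving out each library. The start sites of the GENCODE basic set were an alternative added after seeing the data.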

Additional observations from a re-analysis of the deposited data

How the results depend on the processing

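Depth per peak is unknown, which limits what can be said of weak peaks. No peak was called 2-fold higher under any fit on the scale used, and 1 peak was called 2-fold lower under all of them. A threshold of 1.5-fold gave 5 lower and 9 higher peaks. At an adjusted p under 0.01, 3 Sox9, 0 Sox5 and 3 Sox6 peaks were lower and 13, 6 and 4 were higher. In the upper 50% of peaks by mean signal, 3 Sox9, 0 Sox5 and 0 Sox6 peaks were lower and 13, 9 and 6 were higher. Only 82 of the 198 peaks were then tested, of which 34.1% were higher, against 16.1% of all peaks kept, or 27.7% of those away from start sites. With the GC correction 15 Sox9, 5 Sox5 and 7 Sox6 peaks were higher and 2 Sox5 peaks lower. With median centring 8 Sox6 peaks were higher. The median of all peaks moved from −0.01 to −0.04 with median centring.

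The replicate numbers shared by the genotypes did not pair the libraries, since the correlation of their deviations was −0.01 over all peaks, and same-numbered libraries share only a number. With the replicate number as a block, lower peaks numbered 7 at Sox9, 1 at Sox5 and 4 at Sox6, and higher peaks 22, 10 and 15. With the GC correction and the replicate block together, 15 Sox9, 6 Sox5 and 8 Sox6 peaks were higher and 2 Sox5 peaks lower.

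Leaving out a single library gave 3 to 6 lower peaks at Sox9, 0 to 2 at Sox5 and 3 to 3 at Sox6, and 13 to 18, 4 to 8 and 2 to 9 higher peaks. The 2-fold counts were 1 to 1 lower and 0 to 0 higher. Of the 285 refitted values of the 23 named peaks that were called, 264 kept their direction and call, 21 kept the direction only and 0 changed sign. The cause of these changes was not tested, and a fit with a library left out also has fewer libraries. Windows of 100 kb at Sox5 and Sox6, of 200 kb beyond Sox9 and from the start of Kcnj2, start sites of the basic set and the other scalings moved no count by over 1.5 times.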
